A study of Mus musculus with 21 samples.

Results

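The step of control maturation from 4 h to 8 h was described by comparing 3 libraries of cumulus-oocyte complexes (COCs) cultured for 8 h with DMSO against 3 cultured for 4 h with DMSO. These 6 libraries are the whole of that comparison, out of 21 in the series, and were taken by their labels alone. A COC is an oocyte with the cumulus granulosa cells that surround it. All COCs came from ovaries of wild-type (WT) mice and were matured in medium with epidermal growth factor (EGF), fetal bovine serum, HEPES and pyruvate. The other groups used below were control COCs after 12 h, COCs cultured for 8 h or 4 h with 10 µM of a proprotein convertase inhibitor, and COCs before culture (0 h, no DMSO). Each group held 3 replicates that the labels call biological. How many COCs, animals or cultures stand behind a library is not given in the sources used here. The p-values thus measure the spread between libraries of a group, estimated over all 21 libraries. The libraries hold polyadenylated RNA of cumulus cells and oocyte together, so fewer cells of a type and less RNA per cell cannot be told apart. Nor can a change in the amount of an RNA be told from a change in its polyadenylated part.

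In the ovary a surge of luteinizing hormone makes the follicle wall release EGF-like ligands, and EGF in the medium stands in for them here. Cumulus cells answer through the EGF receptor and ERK with prostaglandin synthesis and with a hyaluronan matrix that pushes the cells apart, which is called expansion. Meanwhile their gap junctions to the oocyte close and the oocyte resumes meiosis. The oocyte takes part by secreting GDF9 and BMP15, and its own genome is transcriptionally quiet while it matures.

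The 6 libraries held 24764480 to 31049434 counts. Levels are given in CPM, a gene's counts relative to the scaled size of its library, and a fold change is given on the log2 scale as 8 h over 4 h ± its standard error (SE) with n = 3 libraries each. A gene is called higher or lower when its adjusted p is under 0.05. Cumulus and granulosa markers were present throughout (14 of 14 tested, with summed levels of 2092 to 3018 CPM at 8 h and 4093 to 6060.1 CPM at 4 h), and so were oocyte markers. Of 12 leukocyte markers 7 could be tested, and they summed to 6.27 to 10.7 CPM at 8 h and 4.36 to 9.56 CPM at 4 h. Cd68, a lysosomal protein abundant in macrophages, was the 1 marker of the 7 called higher and none was called lower; it averaged 4.45 CPM in 8 h COCs and 1.29 CPM in 4 h COCs (1.78 ± 0.27, adjusted p = 0.000217) and kept its call without any 1 library. Ptprc (CD45), which all leukocytes carry, averaged 0.0122 CPM in 8 h COCs and 0.0806 CPM in 4 h COCs. Of 11 endothelial markers 7 were tested and none was called, with sums of 41.3 to 63.7 CPM at 8 h and 50.9 to 59.8 CPM at 4 h.

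The summed level of the 38 oocyte genes differed between replicates. It was 10937, 9240.2 and 15668 CPM in replicates 1 to 3 at 8 h, against 13248, 21149.5 and 15643 CPM at 4 h. The highest sum was in 4 h replicate 2 and the lowest in 8 h replicate 2, and these are the libraries whose removal moved the total of called genes by over 1.5 times.

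In this step 4227 of 18192 genes tested were called (23.2%), 2207 higher (12.1%) and 2020 lower (11.1%) at 8 h. With 8 h replicate 2 left out 2295 genes were called, and with 4 h replicate 2 left out 2684. Without 4 h replicate 1 the balance turned, with 1465 genes higher and 1617 lower. Genes called lower numbered 1303 without 8 h replicate 1, 899 without 8 h replicate 2 and 1172 without 4 h replicate 2, and genes called higher numbered 1396 without 8 h replicate 2. Changes shown to exceed 2-fold, tested directly against that limit, numbered 329 (1.81%), of which 167 were higher (0.918%) and 162 lower (0.891%). The median gene changed by -0.04. Of 1420 long noncoding RNAs tested 23 were called higher (1.62%) and 155 lower (10.9%). Among 14854 protein-coding genes 2157 were called higher (14.5%) and 1752 lower (11.8%). The shares called lower were thus near the 11.1% over all genes, and the shares called higher differed. Counts over the gene lists below stand beside the shares of 12.1% and 11.1%, and a share near them is not a result about the list.

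**Figure D1:**
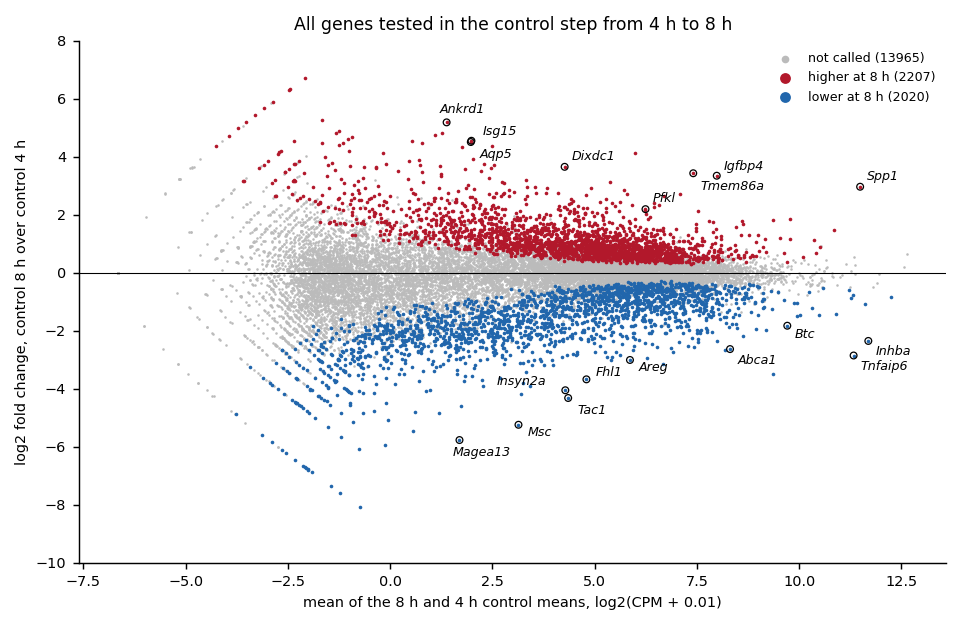
Each point is 1 of 18192 genes, with the mean level in control COCs on the x axis (log2 CPM) and the log2 fold change at 8 h over 4 h on the y axis. Red points are the 2207 genes called higher, blue points the 2020 called lower, and circles mark genes described in the text, among them Spp1 at the upper right and Inhba and Tnfaip6 at the lower right.

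In all, 20 genes turned on, meaning that they were called higher, averaged under 1 CPM at 4 h and averaged at least 5 CPM at 8 h. By the mirrored rule 29 genes turned off. All 20 genes that turned on code for proteins, beside 97.7% of all genes called higher, so this is near the share of any rise. Of the 29 that turned off 20 (69.0%) code for proteins, beside 86.7% of all genes called lower. Among the rest were 6 long noncoding RNAs (20.7% of the 29), beside 7.67% of all genes called lower. The libraries of the groups did not overlap for 19 of the 20 and for all 29, beside 45.6% of all genes tested. The rule itself asks for a wide gap between the group means, so these counts describe the choice.

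Ankrd1 had the highest fold change of the genes that turned on. It codes for a transcription cofactor known as a target of the YAP pathway, which senses tension. Ankrd1 had 2.42, 4.05 and 8.68 CPM in 8 h COCs, against 0.0345, 0.226 and 0.14 CPM in 4 h COCs (5.18 ± 0.92, adjusted p = 0.000965). All 8 h libraries were above all 4 h libraries, and replicate 3 was the highest of them. Its promoter is shown here because it holds the core of the site bound by TEAD proteins, the DNA-binding partners of YAP. The 300 bases run from 250 before to 50 after the start (chr19:36119795-36120094, minus strand, GRCm38.p6) and come from RefSeq. Capitals mark CATTCC, here in its reverse complement, at -210 and -123 from the start. This core occurs in 14.7% of all 32851 RefSeq promoters of that length, and a match is not evidence of binding.

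Ankrd1: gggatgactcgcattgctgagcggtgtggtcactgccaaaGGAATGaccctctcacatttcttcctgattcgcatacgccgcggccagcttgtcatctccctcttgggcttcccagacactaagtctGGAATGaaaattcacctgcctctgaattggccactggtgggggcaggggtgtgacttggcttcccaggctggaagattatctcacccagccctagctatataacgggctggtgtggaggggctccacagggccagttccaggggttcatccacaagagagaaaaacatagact

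Other genes that turned on code for secreted or extracellular proteins. Col1a1, a chain of type I collagen, had 4.8, 11.9 and 2.55 CPM in 8 h COCs, against 0.104, 0.452 and 0.386 CPM in 4 h COCs (4.33 ± 0.74, adjusted p = 0.000557), highest in 8 h replicate 2. Cck, the peptide hormone cholecystokinin, had 3.17, 13.9 and 14.8 CPM in 8 h COCs, against 0.276, 1 and 0.246 CPM in 4 h COCs (4.36 ± 1.14, adjusted p = 0.0104), with the low 8 h library still above every 4 h library. Wnt7b, a WNT ligand, had 8.8, 9.07 and 7.8 CPM in 8 h COCs, against 0.311, 0.613 and 1.33 CPM in 4 h COCs (3.51 ± 0.45, adjusted p = 5.31e-05). These Wnt7b values were even among the 8 h libraries, and control COCs at 12 h averaged 52.9 CPM. Tgm2, a transglutaminase that crosslinks proteins, had 4.05, 4.13 and 8.35 CPM in 8 h COCs, against 0.967, 0.452 and 0.947 CPM in 4 h COCs (2.80 ± 0.62, adjusted p = 0.00367).

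Among membrane and intracellular proteins that turned on, Aqp5, a water channel, had 5.87, 7.29 and 9.34 CPM in 8 h COCs, against 0, 0.516 and 0.456 CPM in 4 h COCs (4.51 ± 0.95, adjusted p = 0.00265), with no reads in 4 h replicate 1. Mfsd12, a lysosomal cysteine transporter, had 10.5, 10.2 and 8.35 CPM in 8 h COCs, against 1.21, 0.936 and 0.842 CPM in 4 h COCs (3.28 ± 0.41, adjusted p = 5.17e-05). Bhlha15, also called Mist1, a transcription factor of secretory cells, had 7.14, 6.54 and 5.94 CPM in 8 h COCs, against 0.656, 0.323 and 0.667 CPM in 4 h COCs (3.57 ± 0.58, adjusted p = 0.000345). The 8 h replicates of Mfsd12 and Bhlha15 lay close together. Rpp25, a subunit of ribonuclease P, had 8.25, 11.3 and 7.88 CPM in 8 h COCs, against 0.587, 0.548 and 0.912 CPM in 4 h COCs (3.74 ± 0.55, adjusted p = 0.000175). Bcl3, an IκB-like cofactor of NF-κB, had 5.55, 5.73 and 4.34 CPM in 8 h COCs, against 1.38, 0.774 and 0.526 CPM in 4 h COCs (2.54 ± 0.43, adjusted p = 0.000507). Gas1, a membrane co-receptor for hedgehog ligands, was the exception to the gap between groups, with 0.516, 6.05 and 16.2 CPM in 8 h COCs, against 0.414, 0.581 and 0.491 CPM in 4 h COCs (3.92 ± 0.95, adjusted p = 0.0066). Its 8 h replicate 1 was within the 4 h libraries while replicates 2 and 3 were far above it.

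H2-Ab1 turned on as well. It codes for the beta chain of a class II molecule of the major histocompatibility complex, which antigen-presenting cells carry. It had 14.8, 2.99 and 14.5 CPM in 8 h COCs, against 0.518, 0.581 and 1.33 CPM in 4 h COCs (3.72 ± 0.85, adjusted p = 0.00433), high in 8 h replicates 1 and 3. Among leukocyte markers Ptprc was near 0 in both groups and Cd68 rose, as given above, and their part in this result was not tested. In inhibitor-treated COCs H2-Ab1 averaged 0.33 CPM at 8 h and 0.323 CPM at 4 h.

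The genes that turned off include some that take part in signalling between cells. Avpr1a, a vasopressin receptor, had 0.516, 0.213 and 0.729 CPM in 8 h COCs, against 6.98, 9.81 and 2.7 CPM in 4 h COCs (-3.73 ± 0.77, adjusted p = 0.00235). Ddc, the decarboxylase that makes dopamine and serotonin, had 1.51, 0.605 and 0.766 CPM in 8 h COCs, against 14, 8.65 and 12.9 CPM in 4 h COCs (-3.63 ± 0.58, adjusted p = 0.000308). Prok2, a prokineticin, had 1.07, 0.249 and 0.182 CPM in 8 h COCs, against 4.59, 6.26 and 6.07 CPM in 4 h COCs (-3.50 ± 0.70, adjusted p = 0.00229). In each of these 3 genes every 8 h library was below every 4 h library. Acvr1c, the type I activin and Nodal receptor ALK7, had 0.674, 0.854 and 0.255 CPM in 8 h COCs, against 14.2, 8.52 and 4.1 CPM in 4 h COCs (-3.90 ± 0.64, adjusted p = 0.000413). COCs before culture averaged 0.298 CPM of Acvr1c, so its level was high at 4 h and low again at 8 h.

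Transcription factors and cell-surface proteins turned off too. Msc, the bHLH repressor musculin, had 0.595, 0.747 and 0 CPM in 8 h COCs, against 21, 15.6 and 14.8 CPM in 4 h COCs (-5.25 ± 0.88, adjusted p = 0.000495), with no reads in 8 h replicate 3. Creb5, a bZIP transcription factor, had 0.952, 0.747 and 0.328 CPM in 8 h COCs, against 8.56, 7.81 and 10.1 CPM in 4 h COCs (-3.70 ± 0.47, adjusted p = 5.34e-05), and Stat4, a cytokine-activated factor, had 0.991, 0.249 and 1.57 CPM in 8 h COCs, against 4.9, 6.48 and 6.24 CPM in 4 h COCs (-2.65 ± 0.64, adjusted p = 0.00635). Stat4 was lowest in 8 h replicate 2, the library with the lowest oocyte sum, and the part of oocyte content in its fall was not tested. Clec1a, a C-type lectin receptor, had 0.595, 0.818 and 0.438 CPM in 8 h COCs, against 12.1, 5.16 and 4.95 CPM in 4 h COCs (-3.57 ± 0.56, adjusted p = 0.000269). COCs before culture averaged 53.2 CPM of Clec1a, so it stood lower at each later time through 8 h. Capn6, a calpain without protease activity, had 0.278, 0.818 and 0.547 CPM in 8 h COCs, against 8.7, 3.84 and 7.09 CPM in 4 h COCs (-3.56 ± 0.57, adjusted p = 0.000322). Vcam1, a cell adhesion receptor, had 0.754, 0.533 and 0.948 CPM in 8 h COCs, against 10.6, 4.74 and 2.07 CPM in 4 h COCs (-2.95 ± 0.77, adjusted p = 0.0104).

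Some genes that turned off are known from germ cells. Meikin, a kinetochore protein of the first meiotic division, had 0.912, 0.178 and 1.9 CPM in 8 h COCs, against 4.97, 6.74 and 7.72 CPM in 4 h COCs (-2.70 ± 0.74, adjusted p = 0.0135), lowest in 8 h replicate 2, which also had the lowest oocyte sum. Other genes that turned off, among them Stat4, Lrrc36, Gm4566, Gm36241 and Gm47432, were lowest in that library too. The part of oocyte content in the count of genes that turned off was not tested. Magea13, a member of the MAGE family of germ-cell antigens whose copies may share reads, had 0.0793, 0 and 0.255 CPM in 8 h COCs, against 15.3, 1.9 and 1.79 CPM in 4 h COCs (-5.77 ± 1.20, adjusted p = 0.00242). Its 4 h replicate 1 was far above the other two, which were in turn above every 8 h library. Of all 29 genes, 18 (62.1%) averaged more at 4 h than before culture, beside 51.7% of all genes called lower. At 12 h 22 of them (75.9%) averaged still less than at 8 h, beside 72.1% of all genes called lower. Of the 20 that turned on, 15 (75%) averaged more at 12 h than at 8 h, beside 77.0% of all genes called higher. The 12 h shares are thus near those of all called genes.

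**Figure D2:**
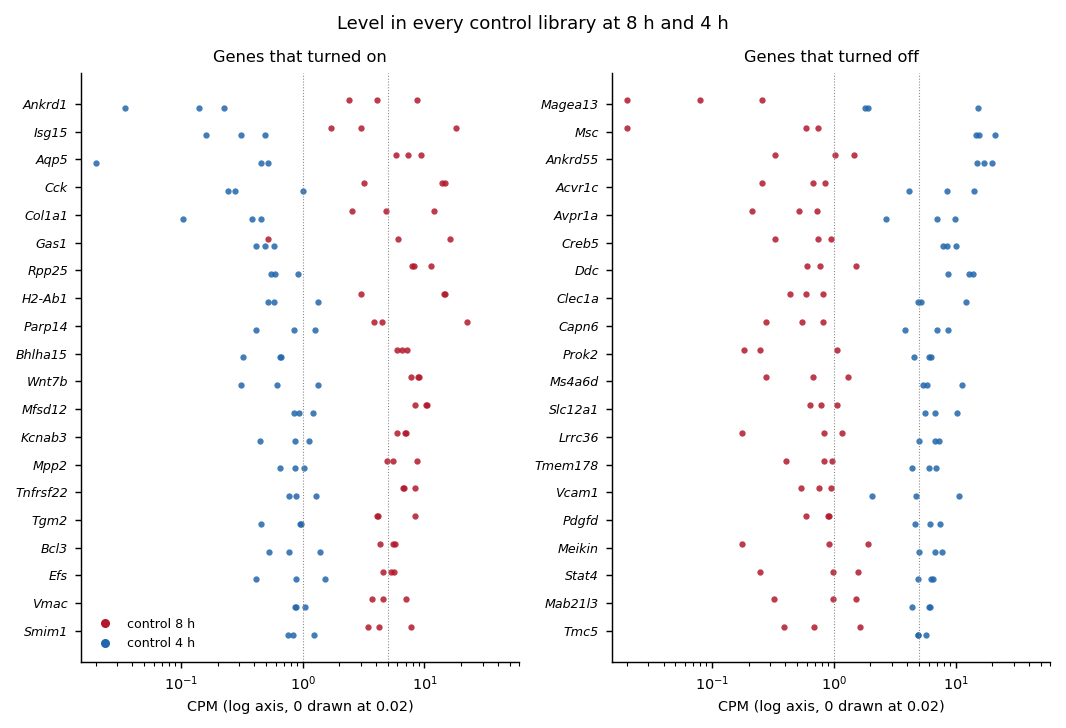
Each point is the level of a gene in 1 control library (CPM on a log axis, 0 drawn at 0.02), red for 8 h and blue for 4 h, for the 20 genes that turned on (left) and the 20 with an established symbol that turned off (right). Dotted lines stand at 1 and 5 CPM, the bounds of the rule, and Gas1 is the gene whose 8 h and 4 h libraries overlap.

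Beyond the on and off genes, the step raised several genes that were already present at 4 h. Pdcd1, the receptor PD-1 of activated lymphocytes, had 216, 325 and 171 CPM in 8 h COCs, against 33, 28 and 48.4 CPM in 4 h COCs (2.70 ± 0.31, adjusted p = 2.66e-05). Pdcd1 was higher in every 8 h library. Of the 7 leukocyte markers tested Cd68 also rose and Ptprc was near 0 at both times, and their part in the rise of Pdcd1 was not tested. Dixdc1, a DIX-domain protein of WNT signalling, had 28.9, 45.9 and 32.1 CPM in 8 h COCs, against 2.69, 3.58 and 2.21 CPM in 4 h COCs (3.65 ± 0.29, adjusted p = 3.47e-07). Igfbp4, a binding protein that holds insulin-like growth factors, had 384, 609.8 and 389 CPM in 8 h COCs, against 48.3, 38.4 and 49.5 CPM in 4 h COCs (3.34 ± 0.50, adjusted p = 0.000184). Tmem86a, a lysoplasmalogenase, had 148, 434 and 351 CPM in 8 h COCs, against 22.4, 35.3 and 29 CPM in 4 h COCs (3.43 ± 0.51, adjusted p = 0.000189).

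Of the genes that fell but still averaged over 1 CPM at 8 h, Tac1, the precursor of substance P, had 3.21, 1.67 and 0.948 CPM in 8 h COCs, against 61.7, 31.3 and 23.6 CPM in 4 h COCs (-4.32 ± 0.56, adjusted p = 6.13e-05). Insyn2a, a protein known from inhibitory synapses, had 2.42, 1.85 and 2.33 CPM in 8 h COCs, against 46.2, 24.7 and 39.2 CPM in 4 h COCs (-4.06 ± 0.33, adjusted p = 4.2e-07). Has1, a hyaluronan synthase, had 2.18, 1.21 and 0.438 CPM in 8 h COCs, against 17.9, 17.5 and 18.1 CPM in 4 h COCs (-3.80 ± 0.47, adjusted p = 4.28e-05). Has1 averaged 0.459 CPM before culture, so its level was high at 4 h alone among the times measured. Fhl1, a LIM-domain protein, had 2.97, 6.37 and 2.7 CPM in 8 h COCs, against 67.4, 42.5 and 44.9 CPM in 4 h COCs (-3.68 ± 0.45, adjusted p = 4.12e-05), and Zdbf2, an imprinted gene, had 1.39, 1.42 and 1.2 CPM in 8 h COCs, against 27.5, 11.7 and 21 CPM in 4 h COCs (-3.90 ± 0.60, adjusted p = 0.000243).

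Among the called genes with the most reads, Spp1, the secreted phosphoprotein osteopontin, had 4033, 5602 and 5660.2 CPM in 8 h COCs, against 575, 571 and 815 CPM in 4 h COCs (2.96 ± 0.41, adjusted p = 0.000111). Inhba, the activin and inhibin subunit, had 1238, 1209 and 793 CPM in 8 h COCs, against 6707, 4282 and 5599 CPM in 4 h COCs (-2.36 ± 0.34, adjusted p = 0.000128). Tnfaip6 fell beside it and is described with the matrix genes. Slc7a8, an amino acid transporter, had 3826, 3707 and 2895 CPM in 8 h COCs, against 7468, 4799.6 and 6533 CPM in 4 h COCs (-0.85 ± 0.25, adjusted p = 0.0203), and its call was lost without 8 h replicate 3 (-0.73, adjusted p = 0.0729), 4 h replicate 1 (-0.74, adjusted p = 0.0717) or 4 h replicate 3 (-0.82, adjusted p = 0.0546). Hspa8, the constitutive HSP70 chaperone, had 1899.8, 1812 and 1344 CPM in 8 h COCs, against 1096, 977 and 1098 CPM in 4 h COCs (0.67 ± 0.18, adjusted p = 0.0111).

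Genes of the expanding matrix were lower or not called. Of the 11 matrix genes tested, 4 fell and none rose, and the median change was -1.03, against -0.04 for all genes. Tnfaip6, which links heavy chains of inter-alpha-inhibitor to hyaluronan, had 719, 672 and 481 CPM in 8 h COCs, against 6291, 3062 and 4225 CPM in 4 h COCs (-2.86 ± 0.26, adjusted p = 2.28e-06). Adamts1, the protease that cleaves versican, had 263, 160.0 and 189 CPM in 8 h COCs, against 932, 709 and 711 CPM in 4 h COCs (-1.94 ± 0.27, adjusted p = 0.000116). Both were lower in every 8 h library. Has2, the synthase that makes most hyaluronan during expansion, had 804, 494 and 655 CPM in 8 h COCs, against 1511, 1037 and 1443 CPM in 4 h COCs (-1.03 ± 0.35, adjusted p = 0.0381). The call of Has2 was lost without 8 h replicate 2 (-0.84, adjusted p = 0.165), 8 h replicate 3 (-1.02, adjusted p = 0.0865), 4 h replicate 1 (-0.96, adjusted p = 0.0978) or 4 h replicate 3 (-0.97, adjusted p = 0.0944). Ptx3, the pentraxin that crosslinks the matrix, had 3243, 3013 and 2561 CPM in 8 h COCs, against 4754, 3226 and 4540.3 CPM in 4 h COCs and was not called (-0.51 ± 0.32, adjusted p = 0.266). The versican gene Vcan was not called either, with 312, 425 and 306 CPM in 8 h COCs, against 668, 413 and 316 CPM in 4 h COCs (-0.42 ± 0.29, adjusted p = 0.327).

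The EGF-like ligands that pass the ovulatory signal to cumulus cells were also lower where they were called. Areg (amphiregulin) had 11.9, 14.8 and 11.7 CPM in 8 h COCs, against 114, 81.3 and 115 CPM in 4 h COCs (-3.01 ± 0.46, adjusted p = 0.000227). Btc (betacellulin) had 481, 360.0 and 261 CPM in 8 h COCs, against 1870.0, 1032 and 1019 CPM in 4 h COCs (-1.83 ± 0.35, adjusted p = 0.00121). COCs before culture averaged 0.212 CPM of Areg and 3.99 CPM of Btc, so both ligands were high at 4 h and lower at 8 h. Ereg (epiregulin) had 103, 89.1 and 62.3 CPM in 8 h COCs, against 207, 106 and 104 CPM in 4 h COCs and was not called (-0.71 ± 0.54, adjusted p = 0.364). Over the 16 ligands, receptors and sheddases, 4 were called lower and 2 higher.

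Their receptors moved in both directions. Egfr had 73.8, 77.6 and 76.1 CPM in 8 h COCs, against 143, 163 and 119 CPM in 4 h COCs (-0.90 ± 0.21, adjusted p = 0.00499). Erbb2, which pairs with the other receptors of the family, had 94.8, 98.5 and 81.1 CPM in 8 h COCs, against 41.4, 33.7 and 49.4 CPM in 4 h COCs (1.14 ± 0.25, adjusted p = 0.00345), and Erbb3 had 13, 15.9 and 11.7 CPM in 8 h COCs, against 2.59, 4.81 and 5.65 CPM in 4 h COCs (1.63 ± 0.29, adjusted p = 0.000684). No library of one time overlapped those of the other in these 3 genes.

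Ptgs2, the inducible cyclooxygenase that begins prostaglandin synthesis, had 1198, 1004 and 898 CPM in 8 h COCs, against 3761, 1829 and 2818 CPM in 4 h COCs (-1.44 ± 0.26, adjusted p = 0.000966). Hpgd, which inactivates prostaglandins, had 35.5, 44 and 31.8 CPM in 8 h COCs, against 14.7, 12.5 and 8.77 CPM in 4 h COCs (1.63 ± 0.34, adjusted p = 0.00235). These were the only called members among 15 prostaglandin genes, and without 8 h replicate 3 the number higher was 2. The promoters of Areg (chr5:91139349-91139648, plus strand) and Ptgs2 (chr1:150099781-150100080, plus strand), on GRCm38.p6, follow, since both genes are known targets of cAMP signalling in granulosa cells. Capitals mark TGACG, the half-site of the cAMP response element, on either strand. Areg holds the full palindrome TGACGTCA at -61 and a separate half-site at -115, and Ptgs2 holds a half-site at +13 that overlaps the E-box CACGTG at +16. The half-site occurs in 20.8% of RefSeq promoters, the palindrome in 1.79% and the E-box in 7.15%. Here too a match is not evidence of binding.

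Areg: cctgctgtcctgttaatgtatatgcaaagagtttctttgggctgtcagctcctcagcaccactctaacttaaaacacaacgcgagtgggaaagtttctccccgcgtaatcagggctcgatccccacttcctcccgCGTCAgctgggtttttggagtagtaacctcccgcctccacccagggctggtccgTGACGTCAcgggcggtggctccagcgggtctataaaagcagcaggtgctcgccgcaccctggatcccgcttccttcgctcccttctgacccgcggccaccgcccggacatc

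Ptgs2: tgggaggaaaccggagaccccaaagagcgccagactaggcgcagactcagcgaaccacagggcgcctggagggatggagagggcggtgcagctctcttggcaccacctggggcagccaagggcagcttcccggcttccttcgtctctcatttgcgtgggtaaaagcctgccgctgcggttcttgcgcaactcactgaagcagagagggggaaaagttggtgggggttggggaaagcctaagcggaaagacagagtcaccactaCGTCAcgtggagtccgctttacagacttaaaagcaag

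Immediate-early factors, which cells switch on within minutes of a growth signal, were lower on balance. Of 23 tested 8 fell and 1 rose, and the median change was -0.57. The single rise was lost without 8 h replicate 2, 4 h replicate 1 or 4 h replicate 2. Egr1 had 35.1, 74.5 and 31.7 CPM in 8 h COCs, against 240.4, 133 and 178 CPM in 4 h COCs (-1.96 ± 0.44, adjusted p = 0.00414). Fosb had 5.35, 3.63 and 4.96 CPM in 8 h COCs, against 10.5, 17.7 and 26.4 CPM in 4 h COCs (-1.97 ± 0.41, adjusted p = 0.0025), and Nr4a3, an orphan nuclear receptor, had 4.96, 4.94 and 4.56 CPM in 8 h COCs, against 17.9, 12.3 and 15.8 CPM in 4 h COCs (-1.67 ± 0.33, adjusted p = 0.00155). Maff, a small MAF factor, had 6.82, 7.18 and 8.02 CPM in 8 h COCs, against 19.1, 21.3 and 22.2 CPM in 4 h COCs (-1.51 ± 0.21, adjusted p = 9.44e-05). Egr1 and Fosb averaged 682 and 269.5 CPM before culture, so their 8 h levels continued a decline, whereas Nr4a3 averaged 1.09 CPM before culture and was highest at 4 h.

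Of 16 genes of ERK feedback 7 fell and 2 rose. Spry2 had 2.74, 2.56 and 2.55 CPM in 8 h COCs, against 16, 10.4 and 13 CPM in 4 h COCs (-2.32 ± 0.31, adjusted p = 8.04e-05). Dusp10, a phosphatase of the stress kinases p38 and JNK, had 28.3, 19.9 and 19.8 CPM in 8 h COCs, against 59.7, 59.1 and 53 CPM in 4 h COCs (-1.34 ± 0.20, adjusted p = 0.000211). Errfi1, which binds and inhibits the EGF receptor, had 211, 238 and 241 CPM in 8 h COCs, against 486, 465 and 481 CPM in 4 h COCs (-1.05 ± 0.27, adjusted p = 0.0092). Etv5, an ERK-responsive transcription factor, went the other way with 46.2, 42.8 and 37.4 CPM in 8 h COCs, against 21.3, 21.8 and 19.5 CPM in 4 h COCs (1.01 ± 0.23, adjusted p = 0.00386). The rises numbered 1 without 4 h replicate 1 or 4 h replicate 2.

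**Figure D3:**
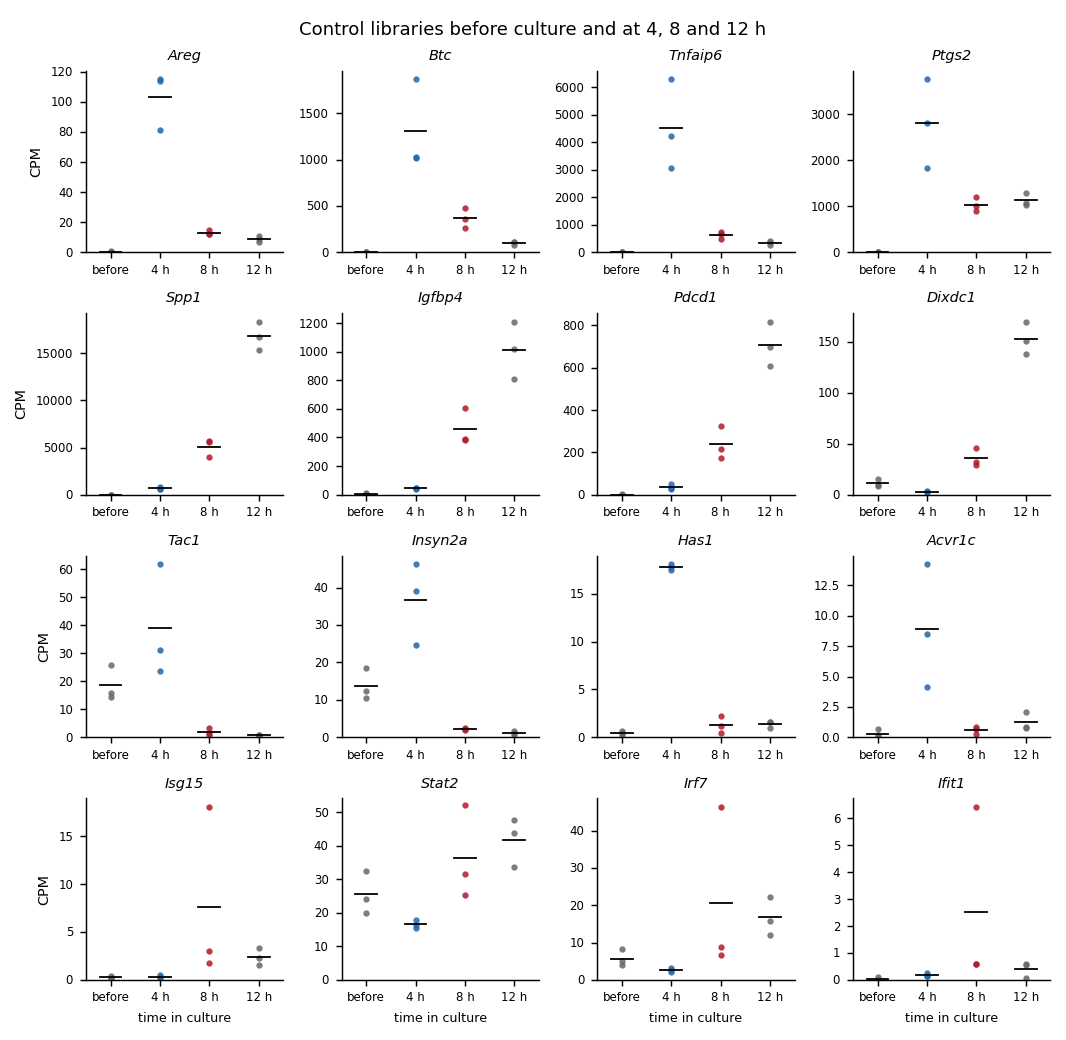
Levels (CPM) of 16 genes in each control library before culture and after 4, 8 and 12 h, with 4 h in blue, 8 h in red and a bar at each mean of 3 libraries. Areg, Btc, Tnfaip6 and Has1 peaked at 4 h, Spp1, Igfbp4 and Pdcd1 were higher at each later time, and the interferon-induced genes in the bottom row were highest in 8 h replicate 1.

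Of 20 transcription regulators known from ovulation, 4 fell and 1 rose. Pparg, a nuclear receptor of lipid metabolism that ovulating granulosa cells induce, had 111, 84.6 and 75.9 CPM in 8 h COCs, against 492, 266 and 367 CPM in 4 h COCs (-2.05 ± 0.32, adjusted p = 0.000293). Cebpa had 38.5, 39.3 and 29.4 CPM in 8 h COCs, against 121, 91.7 and 175 CPM in 4 h COCs (-1.85 ± 0.33, adjusted p = 0.000857), and Epas1, the hypoxia factor HIF-2α, had 25.4, 27.4 and 22.3 CPM in 8 h COCs, against 49.6, 41.3 and 60.7 CPM in 4 h COCs (-1.01 ± 0.24, adjusted p = 0.00613). The progesterone receptor gene Pgr was called lower from few reads, 2 over the 3 libraries at 8 h and 90 at 4 h. The single rise was lost without 8 h replicate 2, 4 h replicate 1 or 4 h replicate 2.

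Of 17 genes of the unexpanded cumulus 5 fell and 1 rose. The falls numbered 3 without 4 h replicate 1, and the rises 0 without 8 h replicate 2, 4 h replicate 1 or 4 h replicate 2 and 2 without 8 h replicate 1. Fshr, the receptor of follicle-stimulating hormone, had 7.54, 6.58 and 3.98 CPM in 8 h COCs, against 30, 17.4 and 19.3 CPM in 4 h COCs (-1.88 ± 0.30, adjusted p = 0.000284). Nppc, the peptide that holds the oocyte in meiotic arrest, had 1.11, 1.1 and 1.02 CPM in 8 h COCs, against 4.28, 3.1 and 5.02 CPM in 4 h COCs (-1.93 ± 0.36, adjusted p = 0.00108), and Mro had 1.82, 1.28 and 1.82 CPM in 8 h COCs, against 5.52, 7.87 and 6.49 CPM in 4 h COCs (-2.01 ± 0.41, adjusted p = 0.00195). Of 14 genes of mural granulosa and luteal cells, some of them shared with that list, 5 fell and none rose.

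Steroid genes moved in both directions, 4 of 16 lower and 3 higher. The number lower was 1 without 8 h replicate 2 and 2 without 4 h replicate 1. Fdx1, the electron donor of mitochondrial steroid synthesis, had 163, 242 and 198 CPM in 8 h COCs, against 494, 327 and 351 CPM in 4 h COCs (-0.96 ± 0.23, adjusted p = 0.00715). Tspo, an outer mitochondrial membrane protein of steroid-making cells, had 65.6, 75.2 and 58.4 CPM in 8 h COCs, against 28.7, 20.8 and 28.7 CPM in 4 h COCs (1.35 ± 0.24, adjusted p = 0.00088), and Srd5a1, steroid 5-alpha-reductase, had 9.32, 12 and 8.21 CPM in 8 h COCs, against 2.69, 3.26 and 2.63 CPM in 4 h COCs (1.78 ± 0.31, adjusted p = 0.000661).

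Components of TGF-β family signalling changed in both directions. Of 21 ligands and receptors 6 fell and 3 rose, with Inhba, given above, the widest fall. Bmp6 had 289, 280.2 and 275 CPM in 8 h COCs, against 449, 431 and 486 CPM in 4 h COCs (-0.70 ± 0.16, adjusted p = 0.00503). The rises numbered 0 without 8 h replicate 2 and 1 without 4 h replicate 1 or 4 h replicate 3, and the falls 3 without 8 h replicate 3. Of 19 feedback genes and antagonists 5 fell and 4 rose. Chrd, the BMP antagonist chordin, had 2.02, 3.09 and 2.37 CPM in 8 h COCs, against 0.345, 0.419 and 0.246 CPM in 4 h COCs (2.87 ± 0.40, adjusted p = 0.000114). Bambi, a pseudoreceptor that dampens signalling, had 72.2, 52.8 and 46.6 CPM in 8 h COCs, against 172, 118 and 150.4 CPM in 4 h COCs (-1.36 ± 0.21, adjusted p = 0.00021). Chrd and Bambi thus moved in opposite directions, with no overlap between the times. Feedback rises numbered 2 without 4 h replicate 1, and falls 3 without 4 h replicate 3.

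Among matrix proteins outside the hyaluronan coat, several collagens were higher. Of 20 further collagens and enzymes that process them, 7 rose and none fell, with a median of 0.70. The rises numbered 4 without 8 h replicate 1, 8 h replicate 2 or 4 h replicate 1, and 3 without 4 h replicate 2, where 1 fell. Col12a1 had 133, 161 and 113 CPM in 8 h COCs, against 45.4, 47.8 and 53.7 CPM in 4 h COCs (1.47 ± 0.22, adjusted p = 0.000197), and Col18a1, a basement membrane collagen, had 26.3, 33.1 and 14.3 CPM in 8 h COCs, against 4.45, 3.87 and 2.74 CPM in 4 h COCs (2.73 ± 0.42, adjusted p = 0.000217). Both were higher in every 8 h library. Lox, which crosslinks collagen, had 3049, 3303 and 1818 CPM in 8 h COCs, against 1404, 592 and 925 CPM in 4 h COCs (1.48 ± 0.40, adjusted p = 0.0119), a call lost without 4 h replicate 2 (1.24, adjusted p = 0.0595). Of basement membrane genes Col4a1 had 589.7, 637 and 410.4 CPM in 8 h COCs, against 185, 151 and 325 CPM in 4 h COCs (1.31 ± 0.31, adjusted p = 0.00616). The laminin chain Lama1 had 1734, 1999.9 and 1721 CPM in 8 h COCs, against 701, 914 and 889 CPM in 4 h COCs (1.12 ± 0.24, adjusted p = 0.00264).

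Type I collagen also marks stroma, so the markers of stroma and theca are given beside it. Of 8 markers of stroma and smooth muscle tested 2 rose (Col1a1 and Pdgfra) and 1 fell (Myh11), and they summed to 38 to 50 CPM at 8 h and 51.6 to 69.5 CPM at 4 h. Pdgfra, a growth factor receptor of stromal cells, had 10.2, 11.6 and 9.12 CPM in 8 h COCs, against 2.66, 2.29 and 3.37 CPM in 4 h COCs (1.89 ± 0.35, adjusted p = 0.00106). Myh11, a smooth muscle myosin, had 19.6, 9.14 and 17.2 CPM in 8 h COCs, against 37.2, 58.4 and 46 CPM in 4 h COCs (-1.62 ± 0.48, adjusted p = 0.021), and its call was lost without 8 h replicate 2 (-1.34, adjusted p = 0.119), 8 h replicate 3 (-1.71, adjusted p = 0.0505) or 4 h replicate 2 (-1.42, adjusted p = 0.0861). Col1a2, the partner chain of Col1a1, averaged 0.139 CPM in 8 h COCs and 0.09 CPM in 4 h COCs, and Lum, Tagln and Tcf21 were too low to be tested. Of 6 theca markers tested 1 rose (Ptch1, 1.38 ± 0.27, adjusted p = 0.00153) and 1 fell (Aldh1a1, -3.04 ± 0.37, adjusted p = 4.28e-05), and they summed to 70.8 to 87.9 CPM at 8 h and 72.4 to 91.1 CPM at 4 h. The part of such cells in the collagen levels was not tested.

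Of 16 integrins, the receptors of the matrix, 3 rose and 2 fell, shares not far from the 12.1% and 11.1% over all genes. The falls numbered 1 without 8 h replicate 2 or 4 h replicate 1. Itgb3, the integrin β3 chain, had 499, 310.4 and 287 CPM in 8 h COCs, against 124, 83 and 124 CPM in 4 h COCs (1.73 ± 0.30, adjusted p = 0.000669). Its partner Itgav had 561, 678 and 429 CPM in 8 h COCs, against 1896, 1269 and 1395 CPM in 4 h COCs (-1.45 ± 0.25, adjusted p = 0.000576), lower in every 8 h library. Itga11, an integrin chain that binds collagen, had 12.9, 9.46 and 11.2 CPM in 8 h COCs, against 1.45, 2.1 and 1.86 CPM in 4 h COCs (2.63 ± 0.59, adjusted p = 0.00385). Spp1, described above, codes for a ligand of the αvβ3 integrin. Of 19 metalloproteinases, their inhibitors and plasminogen activators 5 rose and 2 fell. Mmp14, a membrane-bound collagenase, had 253, 378 and 269.8 CPM in 8 h COCs, against 74.8, 49.6 and 80.4 CPM in 4 h COCs (2.14 ± 0.26, adjusted p = 4.28e-05). Mmp11 had 63.6, 127 and 54.7 CPM in 8 h COCs, against 28.7, 15.4 and 21.1 CPM in 4 h COCs (1.91 ± 0.34, adjusted p = 0.000696), and Mmp19 had 6.7, 5.76 and 8.02 CPM in 8 h COCs, against 0.414, 1.58 and 1.33 CPM in 4 h COCs (2.61 ± 0.57, adjusted p = 0.00325). The falls numbered 1 without 8 h replicate 1, 8 h replicate 2, 4 h replicate 1 or 4 h replicate 2.

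Of 20 genes of the actin cytoskeleton and targets of SRF and YAP, 6 rose and 1 fell. Beside Ankrd1, Cnn2 (calponin 2) had 12.9, 33.9 and 14.5 CPM in 8 h COCs, against 2.56, 2.84 and 3.79 CPM in 4 h COCs (2.74 ± 0.38, adjusted p = 0.000108). Tpm2, a tropomyosin, had 20.1, 15.9 and 17.1 CPM in 8 h COCs, against 5.08, 3.77 and 8.73 CPM in 4 h COCs (1.60 ± 0.31, adjusted p = 0.00137). Ccn1, a matricellular protein and YAP target, had 107, 162 and 120.2 CPM in 8 h COCs, against 38.7, 25.8 and 38.8 CPM in 4 h COCs (1.92 ± 0.27, adjusted p = 0.000129). Ccn2, another YAP target, averaged 8.62 CPM in 8 h COCs and 7.52 CPM in 4 h COCs and was not called (0.20 ± 0.47, adjusted p = 0.808). The fall, of Tpm4, was lost without 4 h replicate 1 (-0.80, adjusted p = 0.0537). The keratin Krt18, which granulosa cells share with surface epithelium, had 406, 295 and 327 CPM in 8 h COCs, against 59.9, 105 and 133 CPM in 4 h COCs (1.79 ± 0.30, adjusted p = 0.000557). Of 7 epithelial markers tested 3 rose and 0 fell, but 1 rose without 4 h replicate 1, and Krt7, Upk1b and Msln were too low to be tested. The 7 summed to 1529, 1070 and 1195 CPM at 8 h, against 420, 675 and 760 CPM at 4 h. The part of surface epithelium in this rise was not tested.

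**Figure D4:**
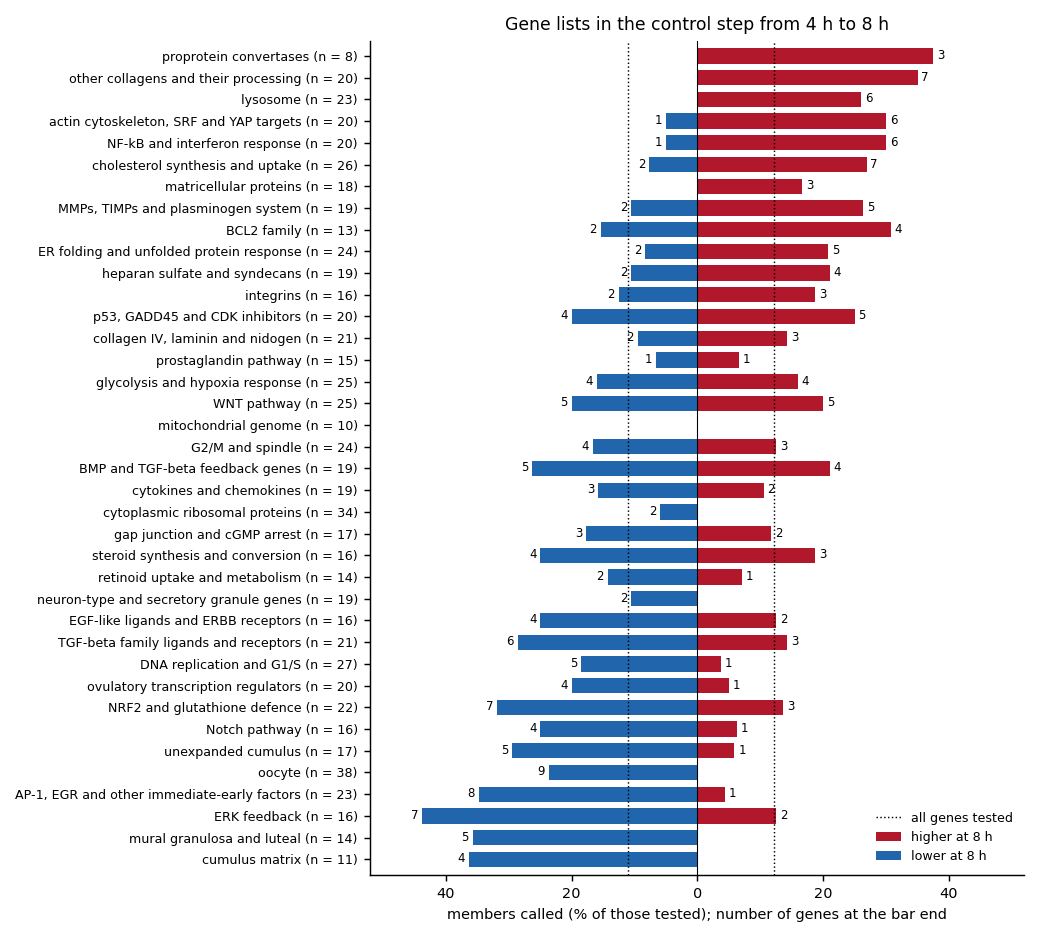
Each bar is the share of the tested members of a gene list (n beside its name) called higher (red, right) or lower (blue, left) at 8 h against 4 h, with the number of genes at its end. Dotted lines mark the shares over all genes tested, 12.1% higher and 11.1% lower, and the cumulus matrix and ERK feedback lists extend furthest to the left.

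Several genes that interferons induce rose, most of all in 8 h replicate 1. Of 20 genes of the interferon and NF-κB responses 6 were called higher, 1 lower and 13 were not called, and without 8 h replicate 1 the number higher was 4. Isg15, a ubiquitin-like modifier, had 18, 2.99 and 1.71 CPM in 8 h COCs, against 0.311, 0.161 and 0.491 CPM in 4 h COCs (4.55 ± 0.99, adjusted p = 0.00335), and turned on by the rule above. Without 8 h replicate 1 its change was 2.87 (adjusted p = 0.0301). Irf7, an interferon regulatory factor, had 46.4, 8.71 and 6.67 CPM in 8 h COCs, against 2.62, 2.13 and 3.12 CPM in 4 h COCs (2.97 ± 0.62, adjusted p = 0.00241; without 8 h replicate 1 1.56, adjusted p = 0.0246). In both genes replicates 2 and 3 at 8 h were also above every 4 h library.

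Stat2, a transcription factor of the interferon response, had 52.3, 31.5 and 25.3 CPM in 8 h COCs, against 16.3, 15.5 and 17.9 CPM in 4 h COCs (1.13 ± 0.25, adjusted p = 0.00401). Parp14, an ADP-ribosyltransferase that interferons induce, turned on with 22.4, 3.88 and 4.45 CPM in 8 h COCs, against 0.414, 1.26 and 0.842 CPM in 4 h COCs (3.60 ± 0.68, adjusted p = 0.00118; without 8 h replicate 1 2.32, adjusted p = 0.00826). Ifit1, an RNA-binding antiviral protein, had 6.42, 0.605 and 0.584 CPM in 8 h COCs, against 0.138, 0.129 and 0.246 CPM in 4 h COCs (3.86 ± 1.07, adjusted p = 0.0148). Its call was lost without 8 h replicate 1 (1.79, adjusted p = 0.221), 4 h replicate 1 (3.72, adjusted p = 0.0571) or 4 h replicate 2 (3.71, adjusted p = 0.0615). In inhibitor-treated COCs, replicate 1 at 8 h was again the highest, with 7.07, 2.97 and 3.63 CPM of Isg15 in replicates 1 to 3, against 0.287, 0.0698 and 0.662 CPM at 4 h. Whether something that the replicates 1 share has a part in this was not tested. The NF-κB targets Nfkbia (0.06 ± 0.19, adjusted p = 0.856) and Tnfaip3 (-0.18 ± 0.31, adjusted p = 0.715) were not called, and Irf1, which interferons also induce, fell to 35.7, 25.8 and 29.2 CPM in 8 h COCs, against 43.8, 68.3 and 58.4 CPM in 4 h COCs (-0.91 ± 0.21, adjusted p = 0.00509).

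The promoters of Isg15 (chr4:156200769-156201068, minus strand), Ifit1 (chr19:34640639-34640938, plus strand) and Stat2 (chr10:128270248-128270547, plus strand), on GRCm38.p6, are shown because each holds the core of the interferon-stimulated response element. Capitals mark GAAANNGAA on either strand, and matches that overlap run together. Isg15 has 3 overlapping matches from -78 to -66, Ifit1 has 3 at -109, -103 and -84, and Stat2 has 1 at -221. The core occurs in 8.56% of RefSeq promoters, and a match is not evidence of binding. It also lies in promoters of other named genes, among them Jag1 and Itgav, which fell, and Erbb2 and Ebp, which rose. The window of Irf7 holds no match.

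Isg15: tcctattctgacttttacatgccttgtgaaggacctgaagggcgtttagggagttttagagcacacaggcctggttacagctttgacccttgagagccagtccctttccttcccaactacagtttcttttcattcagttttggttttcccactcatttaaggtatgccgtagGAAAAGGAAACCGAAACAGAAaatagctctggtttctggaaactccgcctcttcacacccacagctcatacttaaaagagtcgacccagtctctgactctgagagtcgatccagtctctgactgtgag

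Ifit1: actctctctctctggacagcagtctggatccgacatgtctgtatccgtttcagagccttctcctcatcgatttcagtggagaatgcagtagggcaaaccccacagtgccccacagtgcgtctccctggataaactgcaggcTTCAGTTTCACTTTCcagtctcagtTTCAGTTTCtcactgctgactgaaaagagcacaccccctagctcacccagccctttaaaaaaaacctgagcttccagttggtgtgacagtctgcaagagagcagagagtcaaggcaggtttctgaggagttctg

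Stat2: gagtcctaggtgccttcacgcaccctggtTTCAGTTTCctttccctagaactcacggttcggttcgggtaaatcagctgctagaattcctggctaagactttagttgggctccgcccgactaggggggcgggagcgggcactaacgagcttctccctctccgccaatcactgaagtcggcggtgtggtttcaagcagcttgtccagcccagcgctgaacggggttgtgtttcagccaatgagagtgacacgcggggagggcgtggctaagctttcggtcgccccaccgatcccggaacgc

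Other signals between cells changed gene by gene. Il11, a cytokine of the IL-6 family, had 4.08, 3.2 and 2.08 CPM in 8 h COCs, against 31.4, 24.7 and 30 CPM in 4 h COCs (-3.20 ± 0.46, adjusted p = 0.000142), and Il1r1, an interleukin 1 receptor, had 366, 355 and 287 CPM in 8 h COCs, against 926, 688 and 731 CPM in 4 h COCs (-1.22 ± 0.18, adjusted p = 0.000145). Jag1, a Notch ligand, had 973, 571 and 732 CPM in 8 h COCs, against 2502, 1816 and 2013 CPM in 4 h COCs (-1.48 ± 0.35, adjusted p = 0.00627). All 3 were lower in every 8 h library. Of 16 Notch genes 4 fell and 1 rose, the rise lost without 8 h replicate 2 or 4 h replicate 1. Of 25 WNT genes 5 rose and 5 fell. Fzd1, a WNT receptor, had 29.4, 48.5 and 33 CPM in 8 h COCs, against 12.1, 8.26 and 10.9 CPM in 4 h COCs (1.83 ± 0.36, adjusted p = 0.00153). Lgr5, a receptor of R-spondins, had 4.6, 6.69 and 7.48 CPM in 8 h COCs, against 2.94, 1.29 and 1.05 CPM in 4 h COCs (1.83 ± 0.44, adjusted p = 0.00616). Nkd1, a feedback inhibitor of WNT, had 26, 14.3 and 30.5 CPM in 8 h COCs, against 72, 122 and 106 CPM in 4 h COCs (-2.08 ± 0.46, adjusted p = 0.00355). The WNT falls numbered 3 without 8 h replicate 1, 8 h replicate 2 or 4 h replicate 2, and 2 without 8 h replicate 3 or 4 h replicate 3. The WNT rises numbered 3 without 8 h replicate 2 or 4 h replicate 1.

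Several enzymes of cholesterol synthesis rose, and an exporter fell. Of 26 genes of cholesterol synthesis and uptake 7 rose and 2 fell, with a median of 0.03. Mvk, mevalonate kinase, had 34.7, 60.8 and 35.9 CPM in 8 h COCs, against 10.5, 7.61 and 13.7 CPM in 4 h COCs (2.05 ± 0.32, adjusted p = 0.000284). Lss, lanosterol synthase, had 35.9, 43.8 and 36.1 CPM in 8 h COCs, against 17.4, 15.1 and 16.5 CPM in 4 h COCs (1.24 ± 0.21, adjusted p = 0.000566). Mvd had 24, 32.1 and 22 CPM in 8 h COCs, against 9.12, 9.19 and 11.5 CPM in 4 h COCs (1.39 ± 0.26, adjusted p = 0.00107) and Ebp had 31.1, 41.6 and 30.9 CPM in 8 h COCs, against 16.2, 12.6 and 12.3 CPM in 4 h COCs (1.33 ± 0.26, adjusted p = 0.0015). Abca1, which exports cholesterol, had 66.4, 118 and 78.8 CPM in 8 h COCs, against 789, 433 and 418 CPM in 4 h COCs (-2.64 ± 0.38, adjusted p = 0.000145). Fdft1, squalene synthase, went against the other enzymes with 116, 90.9 and 121 CPM in 8 h COCs, against 243, 304 and 279 CPM in 4 h COCs (-1.33 ± 0.25, adjusted p = 0.00121).

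Phosphofructokinase, which commits glucose to glycolysis, changed in its subunits. Pfkl had 112, 149 and 112 CPM in 8 h COCs, against 25.2, 26.9 and 29.5 CPM in 4 h COCs (2.19 ± 0.23, adjusted p = 9.26e-06), higher in all 8 h libraries, while Pfkp had 162, 174 and 163 CPM in 8 h COCs, against 354, 309 and 405 CPM in 4 h COCs (-1.10 ± 0.19, adjusted p = 0.000575), lower in all. Hk1, a hexokinase, had 92.6, 91.3 and 84.3 CPM in 8 h COCs, against 24.1, 21.3 and 31.7 CPM in 4 h COCs (1.80 ± 0.32, adjusted p = 0.000781), and the glucose transporter Slc2a1 had 147, 126 and 118 CPM in 8 h COCs, against 276, 217 and 293 CPM in 4 h COCs (-1.004 ± 0.18, adjusted p = 0.000665). Vegfa, the vascular growth factor, had 126, 110.1 and 134 CPM in 8 h COCs, against 214, 286 and 400.2 CPM in 4 h COCs (-1.28 ± 0.26, adjusted p = 0.00185). Of 25 genes of glycolysis and the hypoxia response 4 rose and 4 fell, and the rises numbered 2 without 8 h replicate 2, 4 h replicate 2 or 4 h replicate 3.

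Of 23 lysosomal genes 6 rose and none fell, but 2 rose without 8 h replicate 2 and 3 without 4 h replicate 2. Tfeb, the transcription factor of lysosomal genes, had 11.9, 12.6 and 10.5 CPM in 8 h COCs, against 4.04, 2.77 and 5.09 CPM in 4 h COCs (1.55 ± 0.29, adjusted p = 0.00121), and Neu1, a sialidase, had 48.1, 53.7 and 41.8 CPM in 8 h COCs, against 25.8, 21.7 and 23.3 CPM in 4 h COCs (1.02 ± 0.22, adjusted p = 0.00354). In the secretory pathway, Dnajb9, a chaperone of the endoplasmic reticulum, had 62.7, 55.8 and 45.9 CPM in 8 h COCs, against 23.2, 15.6 and 19.8 CPM in 4 h COCs (1.49 ± 0.22, adjusted p = 0.000176), and Sel1l, of the degradation complex there, had 464, 486 and 413 CPM in 8 h COCs, against 269.6, 203 and 237 CPM in 4 h COCs (0.94 ± 0.18, adjusted p = 0.00148). Among 24 genes of folding and stress in the endoplasmic reticulum 5 rose and 2 fell, and 2 rose without 4 h replicate 2. Chac1 had 8.49, 3.45 and 3.39 CPM in 8 h COCs, against 14.8, 14.5 and 17.8 CPM in 4 h COCs (-1.62 ± 0.32, adjusted p = 0.00168) and Trib3 had 11.3, 6.26 and 6.97 CPM in 8 h COCs, against 19.7, 17.7 and 22.2 CPM in 4 h COCs (-1.28 ± 0.27, adjusted p = 0.00279); both are known targets of the stress factor ATF4. Srxn1, a sulfiredoxin under NRF2, had 103, 89 and 69.3 CPM in 8 h COCs, against 421, 268 and 349 CPM in 4 h COCs (-1.99 ± 0.24, adjusted p = 4.28e-05), and Cat, catalase, had 69.3, 69.6 and 56.8 CPM in 8 h COCs, against 33.8, 30.7 and 29.3 CPM in 4 h COCs (1.06 ± 0.19, adjusted p = 0.00097). Of 22 genes of antioxidant defence 7 fell and 3 rose, and 4 fell without 8 h replicate 1, 8 h replicate 2 or 4 h replicate 2.

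Impdh1 and Impdh2 make the guanine nucleotides from which cGMP is formed, the signal that keeps the oocyte arrested. Impdh1 had 144, 144 and 122 CPM in 8 h COCs, against 65, 61.6 and 71.2 CPM in 4 h COCs (1.05 ± 0.20, adjusted p = 0.00145), and Impdh2 had 88.2, 85.7 and 64.2 CPM in 8 h COCs, against 45.3, 41.4 and 35.5 CPM in 4 h COCs (0.96 ± 0.20, adjusted p = 0.0023). Gja4, the connexin of the oocyte's gap junctions, had 43.9, 10.8 and 44.6 CPM in 8 h COCs, against 150.5, 239.7 and 209 CPM in 4 h COCs (-2.59 ± 0.58, adjusted p = 0.00411), lowest in 8 h replicate 2 and highest in 4 h replicate 2. Among 17 genes of gap junctions and the cGMP signal 2 rose and 3 fell. Proprotein convertases were measured as well, since the study inhibits them in its other arm. Among 8 convertases tested 3 rose and 0 fell, but 1 rose without 4 h replicate 1. Pcsk5 had 322, 384 and 444 CPM in 8 h COCs, against 222, 127 and 132 CPM in 4 h COCs (1.26 ± 0.31, adjusted p = 0.00778). Furin had 478, 406 and 434 CPM in 8 h COCs, against 235, 269 and 354 CPM in 4 h COCs (0.62 ± 0.20, adjusted p = 0.0283), and its call was lost without 8 h replicate 1 (0.57, adjusted p = 0.0881), 8 h replicate 3 (0.64, adjusted p = 0.0565), 4 h replicate 1 (0.46, adjusted p = 0.183) or 4 h replicate 2 (0.60, adjusted p = 0.0912).

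Oocyte genes were lower or not called. Of 38 tested 9 fell and none rose, with a median of -0.38. The falls numbered 2 without 8 h replicate 1, 8 h replicate 2 or 4 h replicate 2, and the lowest and highest oocyte sums given above belong to 8 h replicate 2 and 4 h replicate 2. The part of that difference in these falls was not tested. Nlrp4f, a protein of the NLRP family stored in oocytes, had 277, 119 and 315 CPM in 8 h COCs, against 797, 1186 and 826 CPM in 4 h COCs (-1.98 ± 0.47, adjusted p = 0.00612). Zar1l, a paralog of zygote arrest 1, had 15.3, 1.88 and 12.8 CPM in 8 h COCs, against 50.4, 77.9 and 71.5 CPM in 4 h COCs (-2.74 ± 0.64, adjusted p = 0.00533). Gdf9 had 1312, 1108 and 1754 CPM in 8 h COCs, against 1219, 2080.5 and 1484 CPM in 4 h COCs (-0.20 ± 0.43, adjusted p = 0.79) and Bmp15 had 1129.7, 1012 and 1583 CPM in 8 h COCs, against 1149, 1707 and 1076 CPM in 4 h COCs (-0.08 ± 0.45, adjusted p = 0.922), both with overlapping groups and neither called. Zp3, a protein of the egg coat, had 213, 117 and 304 CPM in 8 h COCs, against 393, 702 and 551 CPM in 4 h COCs and missed the threshold (-1.37 ± 0.51, adjusted p = 0.0598).

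Of 24 genes of G2, mitosis and the spindle 4 fell and 3 rose, shares near those over all genes (11.1% and 12.1%), and single genes are given as values. Ttk, a kinase of the spindle checkpoint, had 75.1, 39.6 and 80.2 CPM in 8 h COCs, against 173, 238 and 195 CPM in 4 h COCs (-1.64 ± 0.31, adjusted p = 0.0011). Ccnd2, cyclin D2, had 91.1, 101 and 73.4 CPM in 8 h COCs, against 209, 166 and 211 CPM in 4 h COCs (-1.14 ± 0.23, adjusted p = 0.00191), and Mcm5, of the replicative helicase, had 116, 107 and 103 CPM in 8 h COCs, against 146, 181 and 168 CPM in 4 h COCs (-0.60 ± 0.12, adjusted p = 0.00209). Among 27 genes of DNA replication and entry into it 5 fell and 1 rose, and 2 fell without 8 h replicate 2. The BCL2 family had 4 rises and 2 falls among 13 genes tested, and 2 rises without 8 h replicate 2. Bik, a killer of the family, and Bcl2l1, a survival gene, were called lower. The call of Bik was lost without 8 h replicate 2 (-1.48, adjusted p = 0.0968). That of Bcl2l1 was lost without 4 h replicate 2 (-0.63, adjusted p = 0.0524). Bid and Bcl2l11 code for killers as well and rose. Bid had 10.8, 9.07 and 11.2 CPM in 8 h COCs, against 4.8, 4.42 and 4.38 CPM in 4 h COCs (1.19 ± 0.25, adjusted p = 0.00243), and Bcl2l11 had 101, 85.3 and 87.2 CPM in 8 h COCs, against 69.6, 53.4 and 57.5 CPM in 4 h COCs (0.60 ± 0.14, adjusted p = 0.00467). Btg1, an antiproliferative gene, had 133, 133 and 85 CPM in 8 h COCs, against 460.3, 274 and 288 CPM in 4 h COCs (-1.54 ± 0.27, adjusted p = 0.000605), and Sesn1, a p53 target, had 19.2, 29.6 and 20.1 CPM in 8 h COCs, against 10.5, 6.97 and 8.03 CPM in 4 h COCs (1.44 ± 0.30, adjusted p = 0.00261). Two-way changes ran through the 20 p53, GADD45 and CDK inhibitor genes tested, with 5 higher and 4 lower. The rises numbered 1 without 4 h replicate 1, and the falls 1 without 4 h replicate 3. Cdkn1a and Btg2, p53 targets too, were called lower. Cdkn1a lost its call without 8 h replicate 2 (-0.96, adjusted p = 0.0636). Btg2 lost its call in several fits. Among them were those without 8 h replicate 1 (-0.91, adjusted p = 0.113), 8 h replicate 3 (-0.90, adjusted p = 0.114) or 4 h replicate 1 (-0.92, adjusted p = 0.0903). The G2 and mitosis falls numbered 1 without 8 h replicate 2 or 4 h replicate 2, and the rises 1 without 8 h replicate 3 and 0 without 4 h replicate 1.

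On chromosome 11, 3 genes of one region fell. Arhgap27 (chromosome 11, 103222323 to 103254518 on mm39, from the deposited table) and Plekhm1 (chromosome 11, 103255101 to 103303513) lie on the same strand, 582 bases apart, and reads that run past a gene end could be counted to its neighbour. Arhgap27, a GTPase-activating protein, had 32, 17.1 and 18.7 CPM in 8 h COCs, against 98.4, 92.4 and 146 CPM in 4 h COCs (-2.31 ± 0.33, adjusted p = 0.000129). Plekhm1, a regulator of lysosome fusion, had 52.1, 50.3 and 42.3 CPM in 8 h COCs, against 149.9, 123 and 212 CPM in 4 h COCs (-1.74 ± 0.18, adjusted p = 8.21e-06). Kansl1, a subunit of a histone acetyltransferase complex, lies 920541 bases further on and had 165, 166 and 145 CPM in 8 h COCs, against 639, 448 and 550.3 CPM in 4 h COCs (-1.78 ± 0.17, adjusted p = 2.81e-06). Between Plekhm1 and Kansl1, Gosr2 (0.46 ± 0.13, adjusted p = 0.0162) and Arf2 (1.19 ± 0.20, adjusted p = 0.000597) rose. These genes were chosen after their values were seen.

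The step was set beside 2 comparisons that share no library with it. In control COCs at 12 h against COCs before culture, 9286 genes were called (51% of those tested), 25.1% higher and 26% lower. Of the 2207 genes higher in the step, 1335 (60.5%) were higher there and 133 (6.03%) lower. Of the 2020 genes lower in the step, 1388 (68.7%) were lower there and 220 (10.9%) higher. The 1335 genes make up 29.3% of those higher at 12 h. Of genes that turned on 17 of 20 were called higher, and of genes that turned off 20 of 29 were called lower and 3 higher, among them Acvr1c (2.04, adjusted p = 0.0141). Of all genes lower in the step, 1044 (51.7%) averaged more at 4 h than before culture.

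The same step in inhibitor-treated COCs (8 h against 4 h) called 4992 genes (27.4%), 12.3% higher and 15.2% lower. Of the genes higher in the control step 1417 (64.2%) were higher there and 2 lower. Of those lower in the control step 1486 (73.6%) were lower there and 9 higher. In turn these are 63.5% of the genes higher and 53.8% of the genes lower in the inhibitor step. The genes that turned on were called higher there with 2 exceptions, H2-Ab1 (-0.02, adjusted p = 0.99) and Tnfrsf22 (0.93, adjusted p = 0.0688). The genes that turned off were called lower there with 4 exceptions, Capn6, Clec1a, Msc and Pdgfd, whose changes were -1.29, -0.84, -1.84 and -1.003. For these 6 genes the difference between the steps was not among those called below.

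The difference between the control step and the inhibitor step was tested for each gene, and 13 of 18192 genes were called (0.0715%), with 1060 at an unadjusted p under 0.05. The control step was the higher in 1 of the 13 (0.0055% of genes tested) and the lower in 12 (0.066%). Myc, the growth-promoting transcription factor, had 38.3, 25 and 28.2 CPM at 8 h and 64.2, 62.3 and 72.4 CPM at 4 h in control COCs, against 50.2, 52.2 and 49 CPM at 8 h and 28.5, 30.8 and 20.5 CPM at 4 h with the inhibitor. It fell in the control step (-1.12 ± 0.24, adjusted p = 0.00262) and rose in the inhibitor step (0.92 ± 0.24, adjusted p = 0.00721), a difference of -2.04 ± 0.33, adjusted p = 0.0305.

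F3, tissue factor, had 11.4, 18.6 and 16.8 CPM at 8 h and 36.3, 31.9 and 18 CPM at 4 h in control COCs, against 100.4, 80 and 56 CPM at 8 h and 16, 16.2 and 24.1 CPM at 4 h with the inhibitor (difference -2.95 ± 0.42, adjusted p = 0.0173). Ddit4l, a stress-induced inhibitor of mTOR, had 9.36, 15.9 and 12.8 CPM at 8 h and 45, 60.3 and 68.5 CPM at 4 h in control COCs, against 198, 212 and 50.4 CPM at 8 h and 29.9, 55.9 and 23.1 CPM at 4 h with the inhibitor (difference -4.27 ± 0.66, adjusted p = 0.0305). Kansl1 fell in the control step, as given above, and with the inhibitor had 171, 169 and 181 CPM at 8 h and 239, 285 and 173 CPM at 4 h (difference -1.36 ± 0.23, adjusted p = 0.0418). No gene was called when the 12 libraries of these 4 groups were fitted alone.

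The differences of Myc, F3, Ddit4l and Kansl1 stayed about as large with any 1 library left out, but many calls missed the threshold. Without control 8 h replicate 1, 2 or 3, 3, 1 and 0 genes were called, and without control 4 h replicate 1, 2 or 3, 3, 3 and 1. Without inhibitor 8 h replicate 1, 2 or 3, 0, 0 and 45 were called. Without inhibitor 4 h replicate 1, 2 or 3, 0, 9 and 1 were called. Myc, F3, Ddit4l and Kansl1 all lost their call without control 8 h replicate 3, inhibitor 8 h replicate 1 or 2, or inhibitor 4 h replicate 1. Without control 8 h replicate 3 the difference was -1.98 (adjusted p = 0.148) for Myc, -3.00 (adjusted p = 0.0803) for F3, -4.26 (adjusted p = 0.148) for Ddit4l and -1.29 (adjusted p = 0.162) for Kansl1. Myc also lost its call without control 8 h replicate 2, any control 4 h replicate or inhibitor 4 h replicate 3. Ddit4l also lost it without control 8 h replicate 1 or 2, control 4 h replicate 2 or 3 or inhibitor 4 h replicate 3, and Kansl1 without control 8 h replicate 1 or 2, control 4 h replicate 1 or 3 or inhibitor 4 h replicate 3. A fit with the replicate number as a block called 8 genes, among them these 4.

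**Figure D5:**
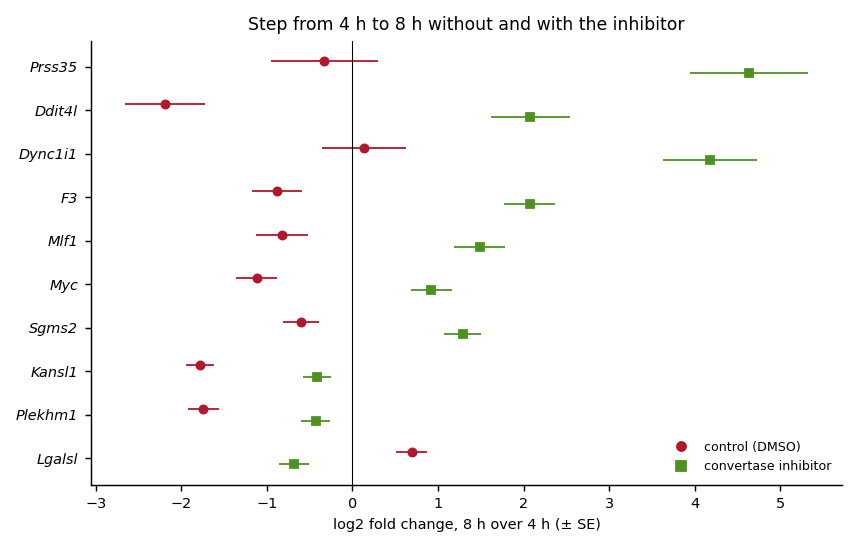
Log2 fold change at 8 h over 4 h ± SE (n = 3 libraries at each time) in control COCs (red circles) and in inhibitor-treated COCs (green squares) for the 10 named genes whose steps differed. Myc, F3 and Ddit4l lie left of 0 in the control step and right of 0 in the inhibitor step, and Lgalsl shows the opposite.

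The step from 4 h to 8 h was last compared with the step from 8 h to 12 h, which shares the 8 h libraries, so an 8 h value enters both steps with opposite signs. The steps differed for 222 genes (1.22%), 96 with a higher (0.528%) and 126 with a lower change (0.693%) in the earlier step. Without 8 h replicate 1, 2 or 3 the count was 43, 55 or 58, without 4 h replicate 1 or 3 it was 108 or 140, and without 12 h replicate 2 or 3 it was 113 or 97. Some genes dipped at 8 h. Anxa1, annexin A1, had 271, 188 and 172 CPM at 4 h, 85.9, 73.7 and 72.7 CPM at 8 h and 224, 227 and 305 CPM at 12 h (earlier step -1.44 ± 0.22, adjusted p = 0.000184; earlier minus later step -3.14 ± 0.39, adjusted p = 0.00192). Vwa5a had 74, 74.2 and 68.3 CPM at 4 h, 26.2, 22.4 and 22 CPM at 8 h and 75.6, 77.9 and 101 CPM at 12 h (earlier minus later step -3.46 ± 0.44, adjusted p = 0.00192). Pfkp, low at 8 h, averaged 431 CPM at 12 h (earlier minus later step -2.47 ± 0.34, adjusted p = 0.00309). Atp1b1, a subunit of the sodium pump, averaged 44.4 CPM at 4 h, 20 CPM at 8 h and 56.9 CPM at 12 h (earlier minus later step -2.66 ± 0.37, adjusted p = 0.00312).

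Others were higher at 8 h than at 4 h and 12 h. Rab27b, a GTPase of secretory granules, had 9.29, 6.42 and 8.28 CPM at 4 h, 41.6, 26.5 and 31.5 CPM at 8 h and 19.2, 13.3 and 13.8 CPM at 12 h (earlier minus later step 3.16 ± 0.42, adjusted p = 0.00275). Tut4, a terminal uridylyltransferase that marks RNA for decay, had 186, 167 and 189 CPM at 4 h, 335, 289 and 272 CPM at 8 h and 151, 146 and 151 CPM at 12 h (earlier minus later step 1.72 ± 0.27, adjusted p = 0.00715). Dnajb9 averaged 32.2 CPM at 12 h, below its 8 h level (earlier minus later step 2.25 ± 0.36, adjusted p = 0.00715). Slc7a4, a transporter-family protein, was as high at 12 h as at 8 h, with 8.77, 11.5 and 12.5 CPM at 4 h, 64.4, 58.6 and 54.2 CPM at 8 h and 62.7, 61.4 and 61.7 CPM at 12 h (earlier minus later step 2.36 ± 0.36, adjusted p = 0.00535).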

How the data were processed

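Mouse COCs gave 21 libraries in 7 groups of 3. RNA was purified with the RNeasy micro kit and made into libraries with the TruSeq Stranded mRNA kit, per the labels' protocols, so levels are those of polyadenylated RNA. The submitters' processing notes name cutadapt for trimming, STAR for alignment, HTSeq for counting and the mm39 build. Their versions, the annotation and HTSeq's settings for strand and ambiguous reads are not stated, so overlapping genes and genes with related copies (Magea13, H2-Ab1, Krt18) are uncertain to that extent. The deposited values are raw counts of 56980 genes.

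Of these, 18192 passed filterByExpr in edgeR 4.0.16 (limma 3.58.1, R 4.3.3), which kept 99.92% or more of each library's counts. TMM factors set the library sizes, and CPM use those sizes. One fit covered all 21 libraries, with 1 mean for each group and 14 residual degrees of freedom. The robust quasi-likelihood F test was two-sided, and p-values were adjusted by Benjamini-Hochberg over the genes tested. The SE is the absolute log2 fold change divided by the square root of F. The common biological coefficient of variation was 29.5%, and the step had a median SE of 0.33. glmTreat tested changes beyond 2-fold. The procedure was tested on simulated counts in which 200 of 17890 genes changed. It called 36% of the 2-fold and 85% of the 4-fold changes, and 6 of its 127 calls (4.72%) were false. The step itself called 4227 genes, so these shares need not hold for it. Replicates of a group always differed by more than sampling noise.

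Genes are named by rule: the 15 widest rises and falls that reach 5 CPM in a group without overlap and have an established symbol, up to 12 genes each that turned on or off, up to 6 called members of a list, the 10 smallest p for control minus inhibitor step, 6 each way for the earlier minus the later step, and 5 each way with the most reads. Ereg, Ptx3, Vcan, Gdf9, Bmp15, Zp3, Arhgap27, Stat4, Meikin, Vcam1, Tgm2, Bcl3, Tnfrsf22, Pdgfd, Gosr2, Arf2, markers and uncalled list members were added after their values were seen. The step, the lists and these rules were chosen with earlier results of these data known. Lists are described by counts, with no test.

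Promoters are RefSeq's on GRCm38.p6, found for 177 of 234 named genes, and were read for 9 motifs on both strands. Beside those in the report these were the AP-1 site TGANTCA (7.81% of all promoters), the TATA box TATAAA (13.6%), the CCAAT box CCAAT (37.4%) and the sterol response element TCACCCCAC (0.551%). The interferon motif was added after the values were seen. Alternatives tried were RLE size factors, library size alone, no filter, a replicate block, only the groups compared, other bounds for on and off, DESeq2 1.42.0 and each library left out.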

Additional observations from a re-analysis of the deposited data

Results flagged for a closer look

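The genes below changed differently in the control step (8 h against 4 h) and in the inhibitor step, by edgeR's test of the difference adjusted over all genes. Values are control step minus inhibitor step on the log2 scale, and every one of these calls was lost in at least one other fit. The control step was the lower for Prss35, a serine protease family member (-4.97 ± 0.90, adjusted p = 0.0491), for Ddit4l (-4.27 ± 0.66, adjusted p = 0.0305) and for Dync1i1, a dynein chain (-4.04 ± 0.71, adjusted p = 0.0453). Prss35 averaged 6.74 CPM at 8 h and 8.47 CPM at 4 h in control COCs, against 212 CPM at 8 h and 8.51 CPM at 4 h with the inhibitor. Dync1i1 averaged 14 CPM at 8 h and 12.8 CPM at 4 h in control COCs, against 159.8 CPM at 8 h and 8.83 CPM at 4 h with the inhibitor. The control step itself was not called for Prss35 and Dync1i1, at -0.33 ± 0.62, adjusted p = 0.751 for Prss35 and 0.13 ± 0.49, adjusted p = 0.878 for Dync1i1. F3 differed by -2.95 ± 0.42, adjusted p = 0.0173, Mlf1 by -2.31 ± 0.42, adjusted p = 0.0491 and Myc by -2.04 ± 0.33, adjusted p = 0.0305. Sgms2, a sphingomyelin synthase, differed by -1.89 ± 0.30, adjusted p = 0.0305. It averaged 25.2 CPM at 8 h and 38.3 CPM at 4 h in control COCs, against 80.5 CPM at 8 h and 32.9 CPM at 4 h with the inhibitor. On chromosome 11, Kansl1 differed by -1.36 ± 0.23, adjusted p = 0.0418 and Plekhm1 by -1.31 ± 0.24, adjusted p = 0.0499. Lgalsl, a galectin-related protein, was the gene with the higher control step (1.37 ± 0.25, adjusted p = 0.0491), and it averaged 42.6 CPM at 8 h and 26.4 CPM at 4 h in control COCs, against 20.8 CPM at 8 h and 33.3 CPM at 4 h with the inhibitor.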

How the results depend on the processing

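The step called 4227 genes, and leaving out 1 of its libraries gave 2295 to 3410. Changes over 2-fold, a narrower question, numbered 329. The other alternatives stayed within 1.5 times: 4199 with RLE factors, 4444 with library size alone (2735 higher and 1709 lower), 3249 with no filter, 5383 with the 6 libraries alone and 5064 with DESeq2. The median gene was at -0.04 with TMM and 0.04 with library size alone. Genes that turned on numbered 20, with 14 to 21 when 1 library was left out, 25 with bounds of 0.5 and 2 CPM and 11 with bounds of 2 and 10 CPM. Genes that turned off numbered 29, with 20 to 43 when 1 library was left out, 54 with the lower bounds and 20 with the higher. The 13 genes of control minus inhibitor step became 7 with library size alone, 27 with no filter, 0 with the 12 libraries alone, 112 with DESeq2 and 0 to 45 when 1 library was left out. The 222 genes of the earlier minus the later step became 389 with library size alone, 992 with the 9 libraries alone, 807 with DESeq2 and 43 to 168 when 1 library was left out. The labels do not say that replicate numbers pair the samples. Deviations of same-numbered control 8 h and 4 h libraries correlated at 0.108, -0.343 and 0.0126, which gives no pairing for the step, whereas those of 8 h libraries with and without inhibitor (0.246, 0.225 and 0.405) and of control 12 h and 8 h libraries (0.288, 0.391 and 0.208) were all above 0.1. A replicate block gave 4297 genes for the step, 8 for control minus inhibitor step, where Lgalsl, Mlf1 and Plekhm1 lost their call, and 229 for the earlier minus the later step. Of 228 named genes called in the step 156 kept their call in every fit, 72 lost it in at least one, and none changed direction. Of the uncalled genes, Bmp15 changed sign without 8 h replicate 1 (0.00081), 8 h replicate 2 (0.0708) or 4 h replicate 2 (0.179), over a range of -0.28 to 0.179, and Gdf9 without 4 h replicate 2 (0.0619), over a range of -0.39 to 0.0619. The cause of these moves was not tested, beyond the fewer libraries or genes that some fits use. The precision is set by 3 libraries a time and by a spread estimated over all 21 libraries. The median SE was 0.33, and many smaller changes were not detectable. The median SD of log2 CPM was 0.165 in 4 h and 0.142 in 8 h control libraries. It was 0.251 before culture, 0.246 with the inhibitor at 4 h and 0.129 to 0.152 in the other groups.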
